A study of Mus musculus with 8 samples.

Results

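The genes described here encode the machinery by which a CD8 T cell reads its antigen receptor: the receptor's signalling chains and coreceptors, the proximal kinases and adaptors, the NFAT and NF-kB arms, and the regulators that tune them. They were taken as a list of 45 genes, and each was represented by its brightest probe set, that is, the one with the highest mean log2(signal + 5) over all 8 arrays. A probe set was available for 43 of the 45, out of 18193 genes with a probe set in the series. All 43 passed the filter on low signal, and 42 of them read above background on every array. The other 2 listed genes, 1 in the kinase and adaptor group and 1 in the NFAT and NF-kB group, were not analysed here.

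The arrays profiled age-associated clonal expansions, populations of memory CD8 T cells that descend from a single cell and share its receptor, against polyclonal memory CD8 T cells of the same old mouse. There were 4 female mice with 1 pair of samples each. The expansions of mice 2, 3 and 4 belong to an integrin alpha4-low subclass and that of mouse 1 is the only alpha4-high expansion. Mice 1 and 2, both C57BL/10SnJ, had reached 20 months of age, mouse 3 (C57BL/10SnJ) 23 months, and mouse 4 (B10.BR) also 23 months. All samples were unmanipulated cells from spleen and lymph nodes, sorted as positive for CD8 and CD122 and negative for MHC class II. An expansion was sorted by its T cell receptor V beta chain (Vb3, Vb8.1/8.2, Vb8.3 and Vb14 in mice 1 to 4), and its polyclonal partner by the lack of that chain, so the partner is a mixture of many clones with 1 V beta family removed.

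The T cell receptor itself has no enzymatic activity. It signals through the CD3 chains and the zeta chain, which are phosphorylated by Src-family kinases held near the coreceptor CD8 and then recruit the kinase ZAP-70. ZAP-70 phosphorylates the scaffolds LAT and SLP-76, from which phospholipase C gamma, Vav and Grb2 lead to calcium, NFAT, Ras and NF-kB, while phosphatases, the kinase Csk, ubiquitin ligases and diacylglycerol kinases hold the cascade back.

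Per array, the background was between 33.7 and 61.9 signal units, and 22050 to 30498 probe sets lay above it. Sort purity was 91, 95, 96 and 98% in expansions 1 to 4 and 97, 75, 66 and 97% in polyclonal samples 1 to 4. The scanner record of expansion 4 had other settings than those of the other 7 arrays, and the settings and that mouse's expansion cannot be separated. The ratio of the 3' to the 5' Gapdh control was between 2.78 and 6.56 in expansions and between 4.62 and 8.41 in polyclonal samples. The CD8 T cell markers Cd3e, Cd8a, Cd8b1 and Thy1 were bright on all arrays. The summed signal of 6 B cell markers was between 2989.8 and 4008 in expansions and between 2091 and 4453 in polyclonal samples, with Cd22 giving the highest signal and Pax5 below background on 6 of 8 arrays. That of 7 myeloid markers was between 1583 and 2819 in expansions and between 825 and 1877 in polyclonal samples, mostly from Lyz2 and Csf1r. Among 5 NK cell markers the defining receptor gene Ncr1 was below background on every array. Eomes and Klre1, which memory CD8 T cells also express, gave most of the sum. The NK marker sum was 8709 to 27144 in expansions and 16923 to 25274 in polyclonal samples. It was higher in the alpha4-high expansion than in its partner (27144 against 20243). In pairs 2 to 4 it was lower in the alpha4-low expansion (14212 against 18471, 8709 against 16923, and 19255 against 25274). Summed signals of 4 CD4 T cell markers were between 277 and 345 in expansions and between 181 and 419 in polyclonal samples, and Cd4 itself was below background on 6 of 8 arrays. Those of 3 gamma delta T cell markers were between 80.4 and 203 in expansions and at most 201 in polyclonal samples, and those of 2 erythroid markers between 14.8 and 78.0 in expansions and between 17.1 and 95.6 in polyclonal samples. The part of these cells in the results was not tested.

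Expansions were set against their partners over all 4 pairs to ask whether the signalling machinery as a whole is expressed at another level in an expanded clone. No member passed. In limma, 0 of 43 members had an adjusted p under 0.05, where 0% of all 22518 probe sets tested did, and 0 of 43 had an unadjusted p under 0.05, where 3.25% of all did. By mean paired difference 13 members were higher in expansions and 30 were lower, with a median of -0.24 on the log2 scale, beside a median of -0.01 over the 10407 genes tested, of which 50.6% were lower. Without pair 2 the members' median was -0.02, and without pair 4 it was -0.06. The split of the members moves with the scaling: with each array centred on its median 25 were lower (58.1%), with quantile normalization 32 (74.4%) and in the deposited scaling 30 (69.8%). Individual mean differences ran from -0.77 for Cblb to 0.40 for Ptpn2. For the brightest probe sets of 21 of the 43 members the 95% interval of the mean difference, not adjusted for the number of genes, lay within 1 log2 unit of 0 on both sides. Other probe sets of these genes can differ, as given for Cd8a, Fyn, Rasgrp1, Malt1, Nfatc1, Themis, Ptpn2, Sla and Ptpn6. In bulk RNA from sorted cells, fewer cells of a type and less RNA per cell cannot be told apart.

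**Figure D1:**
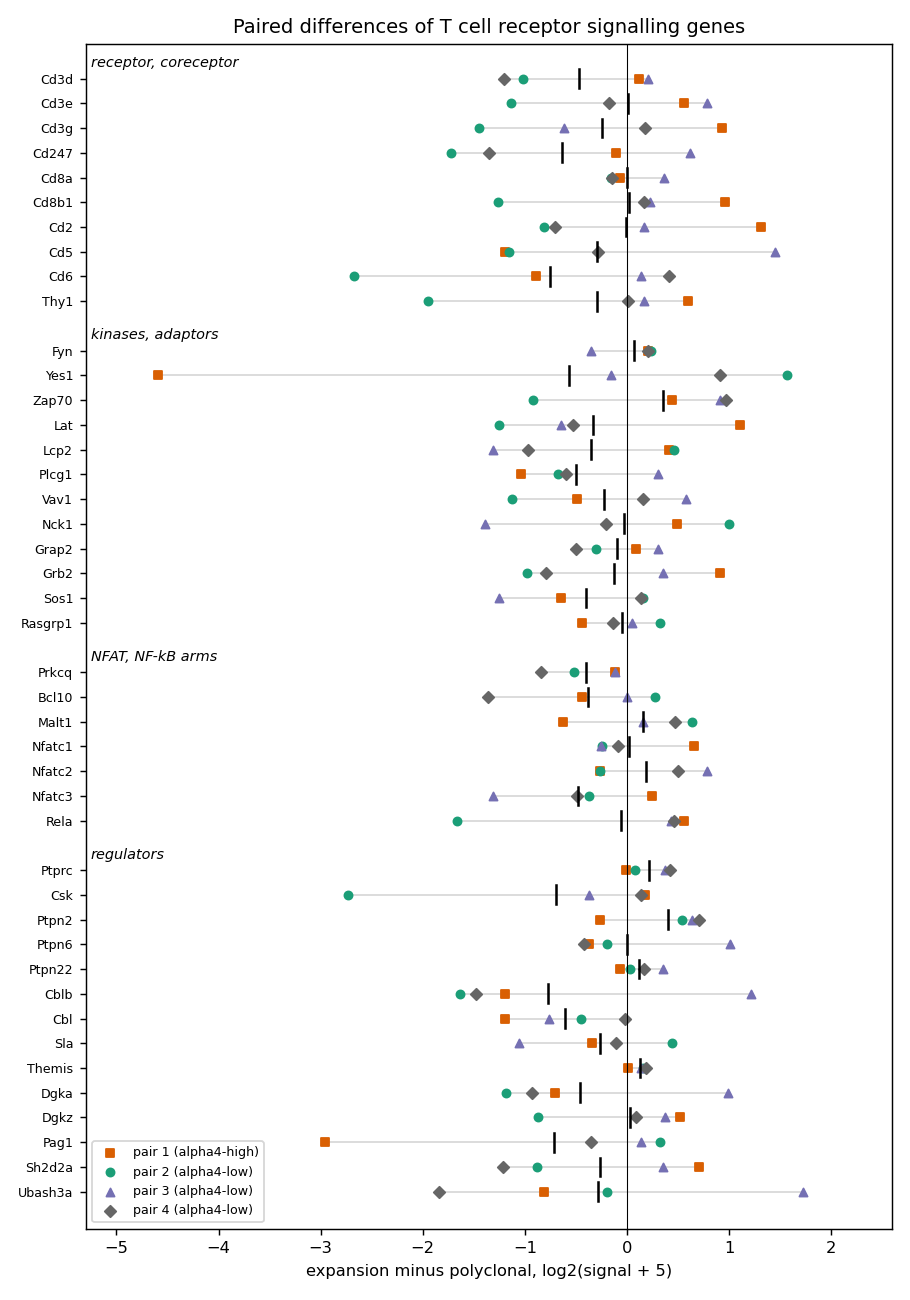
Difference between the expansion and its polyclonal partner in log2(signal + 5), for each of the 43 genes grouped by role; each symbol is 1 mouse and the black bar is the mean of the 4 pairs. Most genes scatter on both sides of 0, and the leftmost symbols belong to Yes1 and Pag1 in pair 1.

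Among the receptor and coreceptor genes, Cd8a and the CD3 chains were abundant in every sample. Expansions and polyclonal samples overlapped for each of them. Cd8a, which encodes the CD8 alpha chain used in the sort of both groups, read 16717, 17736, 30815 and 13073 in expansions 1 to 4 and 17529, 19782, 23889.8 and 14479 in polyclonal samples 1 to 4. The groups overlapped throughout, and its mean difference was 0.00 (95% interval -0.52 to 0.52; limma adjusted p = 0.999998). Of its 5 tested probe sets, another had a lower mean in expansions (-0.68, unadjusted p = 0.0374 in limma), so the probe sets of this gene disagree.

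The CD3 delta, epsilon and gamma chains pair beside the receptor, and Cd247 encodes the zeta chain that carries most of the activation motifs. Cd3d read 6643, 3278, 6351 and 3211 in expansions and 6136, 6664, 5490.2 and 7379 in polyclonal samples 1 to 4. Expansions 2 and 4 were lower than all 4 polyclonal samples and expansions 1 and 3 lay among them, with a mean difference of -0.47 (95% interval -1.21 to 0.26; limma adjusted p = 0.9998). Cd247 read 983, 345, 1219.8 and 302 in expansions and 1058, 1153, 791 and 776 in polyclonal samples, so that expansions 2 and 4 were again the lowest and expansion 3 was the highest of the 8 (mean difference -0.64, limma adjusted p = 0.9998). Without pair 2 it was -0.28, and without pair 3 -1.06. Cd3g read 8334, 3268, 4927 and 2845 in expansions and 4380.4, 8924, 7549 and 2519.7 in polyclonal samples. It was higher in expansions 1 and 4 than in their partners and lower in 2 and 3. Cd3e had a mean difference of 0.01 (95% interval -0.84 to 0.86) and Cd8b1, the CD8 beta chain gene, one of 0.02 (95% interval -0.84 to 0.88). Cd8b1 read 2224, 886, 1855 and 778 in expansions and 1142, 2126, 1588 and 693 in polyclonal samples, lower in expansion 2 only.

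Cd3d and Cd3g lie head to head on chromosome 9, with their annotated starts 1355 bases apart. Their promoter windows, 250 bases before to 50 after the start, are shown because these neighbours differed in pair 4. There Cd3d was lower in the expansion by a log2 difference of -1.20 and Cd3g had one of 0.17. In pairs 1 to 3 the log2 differences were 0.11, -1.02 and 0.21 for Cd3d. For Cd3g they were 0.93, -1.45 and -0.62, so the signs in pair 3 were the other way round. Sequences are from RefSeq for GRCm38.p6 and run 5′ to 3′ on the gene's strand, at chr9:44981536-44981835 (plus strand) for Cd3d and chr9:44980382-44980681 (minus strand) for Cd3g.
Cd3d: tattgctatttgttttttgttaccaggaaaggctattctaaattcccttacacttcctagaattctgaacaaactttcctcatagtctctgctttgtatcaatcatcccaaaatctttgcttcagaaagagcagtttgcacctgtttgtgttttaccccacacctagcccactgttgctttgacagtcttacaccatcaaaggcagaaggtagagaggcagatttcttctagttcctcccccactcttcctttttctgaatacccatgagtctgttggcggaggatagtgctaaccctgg
Cd3g: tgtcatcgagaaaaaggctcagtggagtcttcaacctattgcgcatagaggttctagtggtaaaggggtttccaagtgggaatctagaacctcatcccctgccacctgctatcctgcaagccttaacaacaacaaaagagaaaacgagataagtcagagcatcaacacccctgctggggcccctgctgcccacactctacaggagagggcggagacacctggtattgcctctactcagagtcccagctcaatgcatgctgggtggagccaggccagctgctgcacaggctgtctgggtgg
The windows were searched on both strands for 3 motifs, and neither window holds any of them, so no letters are in capitals. The TATA box was searched as TATAAA, which 13.6% of all 32851 promoter windows in the table hold. The core of sites for ETS factors was searched as CCGGAA, found in 14.9% of all windows. The core of sites for RUNX factors was searched as TGTGGT, found in 16.8% of them. None of these letter strings overlaps another. Member windows on a single chromosome were left out of the next count, while the shares over all windows were not restricted in this way. The windows counted belong to 33 members, and each of the 3 motifs was in 5 of their 47 windows (10.6%).

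Cd2, Cd5, Cd6 and Thy1 encode surface glycoproteins that adjust receptor signalling. Cd6 had the largest mean difference of the group (-0.76, 95% interval -1.85 to 0.33; limma adjusted p = 0.9998), with 109, 129, 414 and 162 in expansions and 207, 849, 377 and 121 in polyclonal samples. That value rests on pair 2, without which it was -0.12. Cd5, an inhibitory receptor whose level follows the strength of receptor signals, was lower in expansions 1, 2 and 4 than in their partners (235 against 542, 429 against 964, and 308 against 375) and higher in expansion 3 (1849 against 675). Cd2 read 4266, 2155, 3698 and 749 in expansions and 1713, 3799.8, 3285 and 1225 in polyclonal samples, higher in expansions 1 and 3 than in their partners and lower in 2 and 4.

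Taken pair by pair, the receptor and coreceptor genes were all on the same side of 0 in mouse 2. In pair 2 all 10 of them were lower in the expansion, 8 by more than 1 log2 unit, with a median of -1.21 beside -0.13 over all genes tested, of which 55.5% were lower and 18.7% lower by more than 1 log2 unit. In the same pair the summed myeloid marker signal was 2351 in the expansion against 825 in the partner. Csf1r was higher by 2.25 and Lyz2 by 1.75 on the log2 scale. That sum was also higher in the expansion in pair 1 (2819 against 1490) and pair 3 (1583 against 1114). It was lower in pair 4 (1625 against 1877). The 5 tested myeloid markers had median differences of 0.76, 0.38, 0.80 and 0.66 in pairs 1 to 4. The part of these cells in the result was not tested. In pair 3, 9 of the 10 receptor and coreceptor genes were higher, with a median of 0.22 beside 0.02 over all genes. Medians were 0.34 in pair 1 and -0.16 in pair 4, beside 0.08 and -0.01 over all genes. Each of these rests on 1 array against 1 array, with no replicate check. The polyclonal partners in pairs 2 and 3 were the samples with sort purities of 75 and 66%, and the medians of those pairs had opposite signs. The part of purity was not tested within a pair. Over all 4 pairs the median of the group was -0.27, and it was 0.11 without pair 2.

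**Figure D2:**
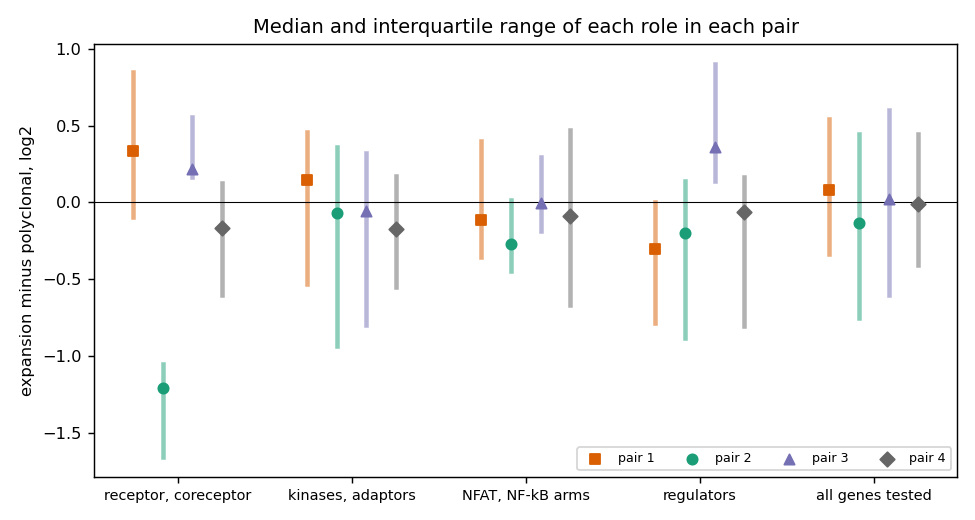
Median (symbol) and interquartile range (bar) of expansion minus polyclonal in log2(signal + 5), for each role group and for the 10407 genes tested, in each of the 4 mice. The receptor and coreceptor genes of pair 2 have a median of -1.21, apart from the other groups.

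The proximal kinases and adaptors had 2 members higher and 10 lower on average, with a median of -0.17. Fyn, a Src-family kinase that can phosphorylate the CD3 chains, was close to even: 9878, 12399, 9005 and 11469.8 in expansions and 8579, 10549.7, 11483 and 9974 in polyclonal samples, a mean difference of 0.07 (95% interval -0.49 to 0.64). Rasgrp1, which activates Ras downstream of diacylglycerol, likewise read 9076, 13821, 8548 and 9783 in expansions and 12299, 11029, 8253 and 10792 in polyclonal samples (mean difference -0.05, 95% interval -0.62 to 0.52). Their group ranges overlapped. The 2 tested Fyn probe sets ran from -0.30 to 0.07. The 3 tested Rasgrp1 probe sets ran from -0.46 to 0.41, so they disagree.

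Larger mean differences in the group had wide intervals. Plcg1, the phospholipase C gamma gene, read 1170.2, 3725, 5365 and 2605 in expansions and 2407, 5945, 4342 and 3942 in polyclonal samples, lower in 3 of 4 expansions (-0.50, 95% interval -1.20 to 0.20; limma adjusted p = 0.9998). Lcp2, which encodes the scaffold SLP-76, read 3699, 3614, 955 and 1721 in expansions and 2783, 2625, 2383 and 3379 in polyclonal samples (-0.35, limma adjusted p = 0.9998), a mean difference that was between -0.63 (without pair 2) and -0.03 (without pair 3) with 1 pair left out. It was higher in expansions 1 and 2 and lower in 3 and 4 than in their partners. Sos1, a Ras exchange factor, read 1695, 3099, 1033 and 3019 in expansions and 2661, 2778, 2474 and 2743 in polyclonal samples (-0.40, limma adjusted p = 0.9998), so that expansions lay at both ends of the range. Without pair 3 the difference was -0.12. Zap70 was higher in expansions 1, 3 and 4 than in their partners (1185 against 869, 2689.6 against 1432, and 1344 against 684) and lower in expansion 2 (751 against 1426). Its 3 tested probe sets ran from -0.09 to 0.35 over all pairs and from -0.64 to 0.32 in the alpha4-low pairs, so they disagree. For the alpha4-low minus the alpha4-high difference they ran from -2.22 to -0.08.

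The NFAT and NF-kB arms were the least variable group between mice, with a median SD of the paired difference of 0.56, beside 0.73 over all genes tested. Prkcq, the protein kinase C theta gene, was lower in 4 of 4 expansions, reading 8255, 9085, 5438 and 4528 in expansions and 8933, 13019.5, 5904 and 8132 in polyclonal samples. Its mean difference of -0.40 did not pass (SE 0.27, 95% interval reaching 0.20; limma adjusted p = 0.9998). Bcl10, an adaptor of the complex that protein kinase C theta triggers, read 6794, 5052, 3447 and 4045 in expansions and 9232, 4166, 3455 and 10406 in polyclonal samples, most of its mean difference (-0.38) coming from pair 4. Malt1, the protease of that complex, read 1280.3, 1856, 2294 and 3616 in expansions and 1983, 1189, 2050.5 and 2603 in polyclonal samples, a mean difference of 0.16 (95% interval -0.56 to 0.89). The 3 tested Malt1 probe sets ran from -0.57 to 0.16, so they disagree.

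Among the NFAT transcription factors, Nfatc3 read 5229.6, 3379, 1362 and 2451 in expansions and 4418, 4365, 3396 and 3441 in polyclonal samples, lower in 3 of 4 pairs (-0.48, 95% interval -1.21 to 0.24; limma adjusted p = 0.9998). Nfatc1 read 3838, 2628, 2291 and 1487 in expansions and 2441, 3121, 2733 and 1581 in polyclonal samples, so that pair 1 ran opposite to the other 3. Its mean difference was 0.02 and that of Nfatc2 was 0.19. The 5 tested Nfatc1 probe sets ran from -0.49 to 0.29, so they disagree. Rela, the p65 subunit of NF-kB, was lower in expansion 2 than in its partner (344 against 1102) and higher in the other 3 pairs (476 against 323, 882 against 653, and 398 against 287).

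The regulators had 6 members higher and 8 lower on average, with a median of -0.26. That median was 0.03 without pair 4, -0.04 without pair 2, -0.12 without pair 1 and -0.40 without pair 3. Ptprc encodes CD45, the phosphatase that keeps Src-family kinases primed, and read 46849, 60909, 72144 and 54726 in expansions and 47192, 57753, 55556 and 40909 in polyclonal samples (0.22, 95% interval -0.23 to 0.66). Themis, a regulator of thymocyte signalling, had the smallest spread of the 43 members. It read 2936, 2191, 2536 and 2329 in expansions and 2912, 1960.3, 2304 and 2049 in polyclonal samples, higher in 4 of 4 pairs by 0.12 ± 0.08 (SD, n = 4) on the log2 scale (95% interval of the model -0.51 to 0.76; limma adjusted p = 0.9998). A dimmer Themis probe set had a difference of -1.16 (unadjusted p = 0.0235 in limma), so this gene too has probe sets that disagree. Ptpn22, a phosphatase that acts on ZAP-70 and Src-family kinases, had a mean difference of 0.12 (95% interval -0.47 to 0.72).

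Ptpn2, a phosphatase that restrains T cell activation, read 23874, 34572, 35365 and 33427 in expansions and 28704, 23795, 22748 and 20566 in polyclonal samples. Expansions 2, 3 and 4 lay above all 4 polyclonal samples and expansion 1 lay among them, with a mean difference of 0.40 (95% interval -0.14 to 0.94; limma adjusted p = 0.9998). The 4 tested Ptpn2 probe sets ran from -0.04 to 0.40, and the brightest was the highest. Cbl and Cblb, ubiquitin ligases that target signalling proteins, were both lower on average. Cbl read 774, 1979, 1471 and 1203 in expansions and 1777, 2706, 2502 and 1216 in polyclonal samples, lower in 4 of 4 pairs (-0.61, 95% interval -1.33 to 0.11; limma adjusted p = 0.9998). Cblb was lower in expansions 1, 2 and 4 than in their partners (412 against 948, 1121 against 3487, and 2090.3 against 5822) and higher in expansion 3 (6186 against 2654), with a mean difference of -0.77 that was -1.43 without pair 3 (limma adjusted p = 0.9998 over all pairs).

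The remaining members also overlapped between groups. Thy1 took its mean difference of -0.29 from pair 2, at 2551 in the expansion against 9847 in the partner. The adaptor genes Nck1 and Grap2 had mean differences of -0.03 and -0.10. Sla, which encodes an adaptor that lowers the receptor's surface level, read 23162, 34188, 9718 and 27221 in expansions and 29274, 25106, 20266 and 29261 in polyclonal samples (-0.26, 95% interval -0.87 to 0.34). Its 4 tested probe sets ran from -0.76 (unadjusted p = 0.0373 in limma) to 0.35, so they disagree. Of the diacylglycerol kinase genes, Dgka had a mean difference of -0.46 and Dgkz one of 0.03. Ptpn6, the SHP-1 phosphatase gene, had a mean difference of 0.00 with expansion 3 (3044) above the other 7 samples. The 2 tested Ptpn6 probe sets ran from -0.46 to 0.00. Ubash3a, an inhibitor of receptor signals, read 159, 592, 2323 and 272 in expansions and 284, 677, 702 and 988 in polyclonal samples, with expansion 3 again the highest of the 8 (-0.28, SE 0.51).

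The signs across pairs were also counted. Of the 43 members, 1 was higher in 4 of 4 pairs (Themis) and 2 were lower in 4 of 4 (Prkcq and Cbl), where 4.79% and 6.05% of all probe sets tested were. The expansions and polyclonal samples overlapped for each of the 43 members, where 0.711% of all probe sets had every expansion above every polyclonal sample and 0.635% every expansion below. The median SD of the paired difference over members was 0.75, beside 0.73 over all genes tested. It was largest for Yes1 (2.78) and Pag1 (1.53), followed by Ubash3a, Cd6, Csk and Cblb.

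The alpha4-low expansions were then set against their own partners in pairs 2 to 4. Again no member passed: 0 of 43 had a limma adjusted p under 0.05, where 0.0533% of all probe sets did, and 0 of 43 an unadjusted p under 0.05, where 5.11% did. There were 14 members higher and 29 lower, with a median of -0.24 beside -0.03 over all genes tested, and of -0.07 without pair 2 and -0.43 without pair 3. By role the medians were -0.52 for receptor and coreceptor genes (0.10 without pair 2), -0.18 for kinases and adaptors, -0.26 for the NFAT and NF-kB arms and -0.12 for regulators.

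Lat encodes the membrane scaffold on which the signalling complex assembles, and it was lower in 3 of 3 alpha4-low expansions, with 1733, 2646 and 1215 against 4144, 4146 and 1758 in their partners. The difference was -0.81 (95% interval -1.68 to 0.05; limma adjusted p = 0.966). Nfatc3 was also lower in 3 of 3 pairs (-0.72, limma adjusted p = 0.967), and so was Prkcq (-0.49, limma adjusted p = 0.989). Ptpn2 was higher in 3 of 3 pairs (0.63, 95% interval -0.01 to 1.26; limma adjusted p = 0.966), and Malt1 too (0.43, limma adjusted p = 0.989). For both genes the brightest probe set gave the highest value. The 4 tested Ptpn2 probe sets ran from 0.03 to 0.63, and the 3 of Malt1 from -0.10 to 0.43. Of all 43 members, 5 were lower in 3 of 3 pairs and 5 were higher (11.6% each), where 15% of all probe sets were lower and 9.99% higher.

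Csk, the kinase that switches off Src-family kinases, read 69.4, 253 and 86.7 in expansions 2 to 4 against 489, 329 and 78.3 in their partners. Its difference of -0.99 (95% interval -2.17 to 0.20; limma adjusted p = 0.967) was -0.12 without pair 2. For the signalling chains the difference was -0.67 for Cd3d (limma adjusted p = 0.971), -0.82 for Cd247 (0.975 likewise) and -0.63 for Cd3g (0.984 likewise). Sh2d2a, which encodes an adaptor that binds Src-family kinases, read 147, 343 and 92.4 in the expansions against 276, 268 and 222 in their partners, with 228 in the alpha4-high expansion against 137 in its partner (-0.58, limma adjusted p = 0.989). Lcp2 had a difference of -0.61 (limma adjusted p = 0.989).

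The last comparison took the paired difference of the alpha4-low expansions minus that of the alpha4-high expansion, to see whether the subclasses differ in signalling genes. In limma 0 of 43 members passed an adjusted p of 0.05, where 0.0533% of all probe sets did. An unadjusted p under 0.05 was found for 3 of 43 (6.98%), Yes1, Pag1 and Lat, a share near the 6.57% of all probe sets. Yes1 and Pag1 were higher, as were 2.5% of all probe sets at that threshold, and Lat was lower, as were 4.06%. The median over members was 0.08, beside -0.09 over all genes tested. By role it was -0.76 for receptor and coreceptor genes, -0.15 for kinases and adaptors, -0.38 for the NFAT and NF-kB arms and 0.32 for regulators. With 1 alpha4-low pair left out, the receptor median was between -1.33 (without pair 3) and -0.38 (without pair 2) and the regulator median between 0.11 (without pair 3) and 0.54 (without pair 2), and with sort purity as a covariate the regulator median was -0.10. A single alpha4-high expansion was measured, so the spread of that subclass is unknown and each interval assumes that it varies like the other pairs. None of the 43 intervals lay within 1 log2 unit of 0, and their median half-width was 1.82.

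**Figure D3:**
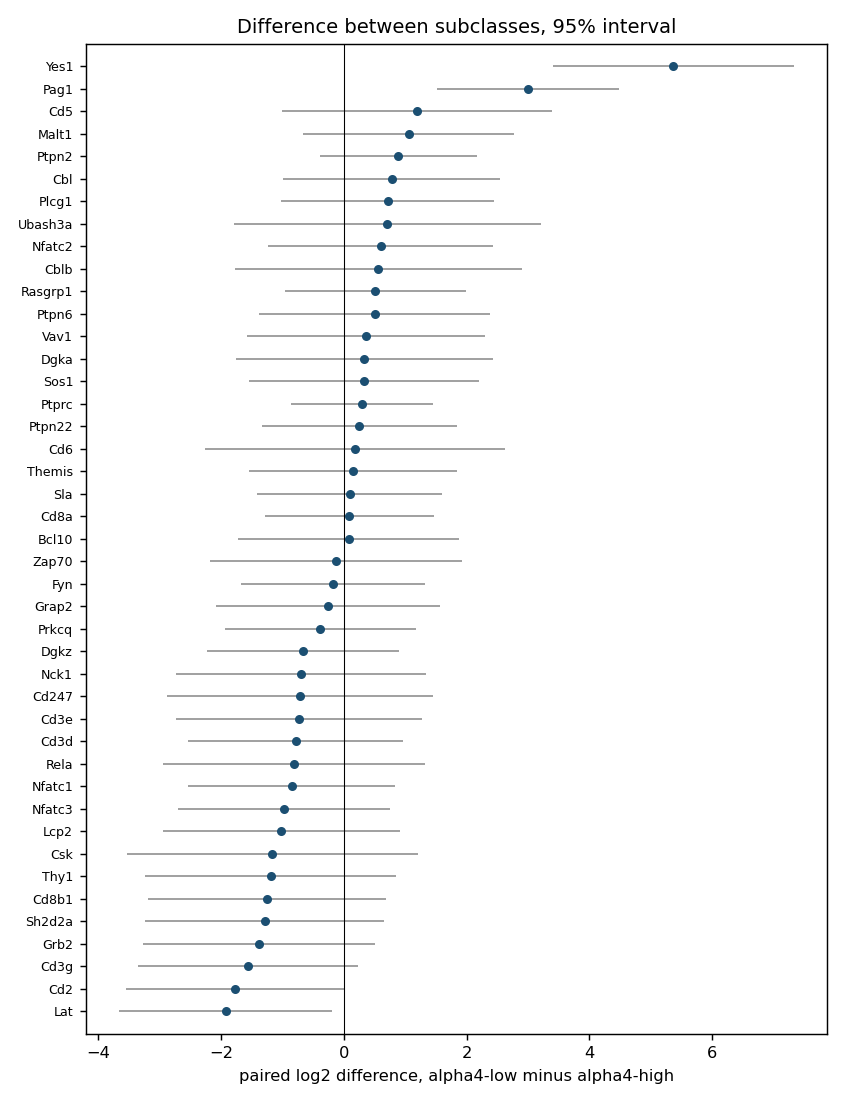
Paired log2 difference of the alpha4-low expansions minus that of the alpha4-high expansion, with its unadjusted 95% interval from limma, for the 43 genes in order of size. Yes1 (5.37) and Pag1 (3.00) lie above 0 and Lat (-1.92) below it, while the intervals of the other 40 genes include 0.

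Yes1, a Src-family kinase related to Fyn, was below background in the alpha4-high expansion and well above it in every other sample. Its brightest probe set read 2049, 620.2 and 2009.7 in alpha4-low expansions 2 to 4 against 687, 694 and 1064 in their partners. In pair 1 it read 44.9 in the expansion, under the background of 46.6 on that array, against 1199 in the partner. The signal in expansion 1 was thus at least 23.3-fold lower than in its partner, as a bound against the background level on the log2(signal + 5) scale. The difference between subclasses was 5.37 (SE 0.90, 95% interval 3.41 to 7.33; limma adjusted p = 0.0624), which rests on a signal with no exact size in expansion 1. In the alpha4-low pairs alone Yes1 had a difference of 0.77 (limma adjusted p = 0.970), with expansions 2 and 4 above their partners and expansion 3 close to its own.

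The call for Yes1 depends on the processing. It passed in 8 of 14 alternatives, among them all 3 that left out 1 alpha4-low pair, and it missed the threshold in 6. The 3 other Yes1 probe sets were tested too. They read 41.8, 4.42 and 1.70 in expansion 1, each under background, against 179, 187 and 100.7 in its partner, at least 3.56-fold, 3.72-fold and 2.05-fold lower. Their differences between subclasses were 2.15, 4.73 and 4.98 (limma adjusted p = 0.643, 0.0853 and 0.0961). All 4 probe sets therefore had the same direction, and none passed.

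**Figure D4:**
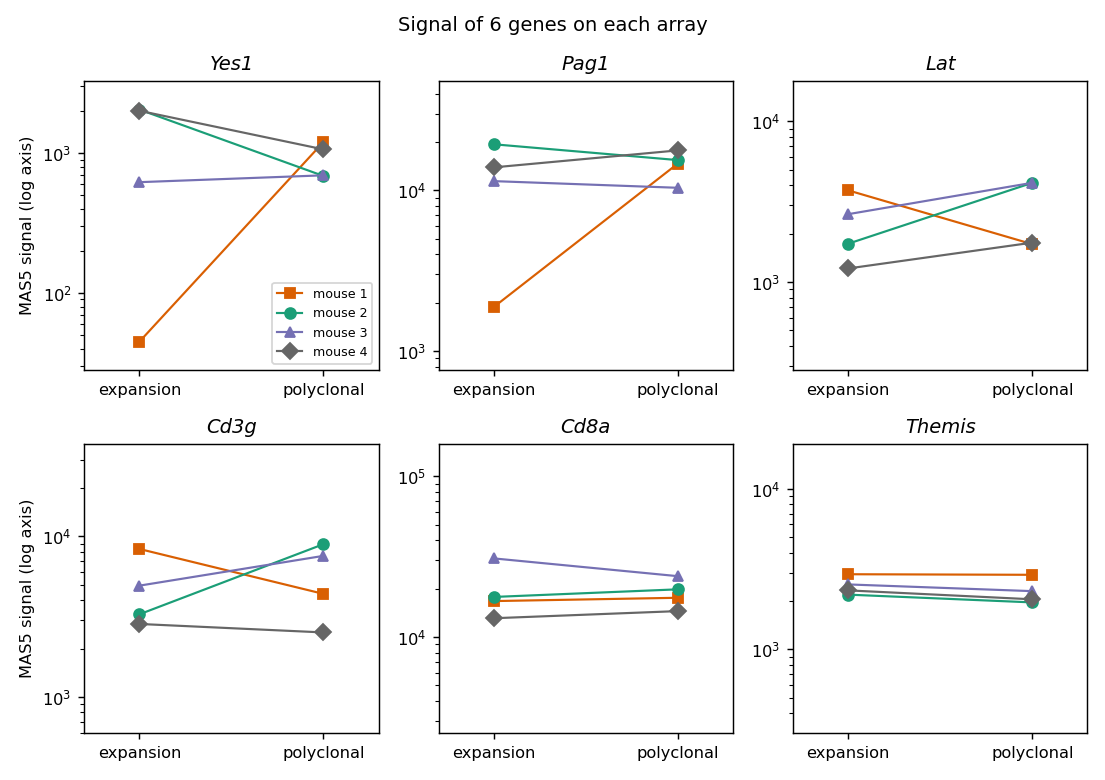
MAS5 signal on a log axis of 6 genes in the expansion and the polyclonal sample of each mouse, joined by a line. Yes1 and Pag1 are low in the expansion of mouse 1 (44.9 and 1882), Lat and Cd3g cross between mice, and Cd8a and Themis run nearly flat.

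The promoter window of Yes1 is shown because its signal was the member value that stood farthest from the rest. It lies at chr5:32610921-32611220 (plus strand, GRCm38.p6, RefSeq), and capitals mark the ETS and RUNX cores on either strand, spelled as above.
Yes1: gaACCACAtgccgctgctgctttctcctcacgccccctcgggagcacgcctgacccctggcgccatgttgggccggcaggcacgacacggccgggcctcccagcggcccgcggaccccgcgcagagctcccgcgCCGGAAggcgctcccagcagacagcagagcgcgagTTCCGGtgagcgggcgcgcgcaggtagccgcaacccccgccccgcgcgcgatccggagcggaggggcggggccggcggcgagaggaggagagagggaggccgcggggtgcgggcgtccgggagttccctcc
The window holds 2 ETS cores, 1 on each strand, and 1 RUNX core on the reverse strand. It holds no TATA box. Its G and C content was 77.0%, beside 42.3% in the Cd3d window, 54.0% in the Cd3g window and a median of 52.7% over all windows.

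Pag1 encodes a membrane adaptor that brings Csk to Src-family kinases. It read 19370.4, 11424 and 13914 in alpha4-low expansions 2 to 4 against 15444, 10383 and 17746 in their partners. In pair 1 it read 1882 in the expansion against 14694 in the partner, 7.79-fold lower. The alpha4-low pairs were near even (0.04, 95% interval -0.70 to 0.78), and the difference between subclasses was 3.00 (SE 0.68, 95% interval 1.51 to 4.48; limma adjusted p = 0.167). Its 2 other tested probe sets, both far dimmer, had differences of -0.39 each, opposite in sign (limma adjusted p = 0.9997 for both), so the difference is seen with the brightest Pag1 probe set only. Csk itself read 69.4, 253 and 86.7 in alpha4-low expansions against 489, 329 and 78.3 in their partners, and 182 in the alpha4-high expansion against 160.0 in its partner.

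Lat ran the other way. In the alpha4-high expansion it read 3718 against 1720.4 in the partner, and it was lower in each alpha4-low expansion as given above, a difference between subclasses of -1.92 (95% interval -3.65 to -0.19; limma adjusted p = 0.674). Cd2 (-1.77, limma adjusted p = 0.766), Cd3g (-1.56, limma adjusted p = 0.852), the adaptor gene Grb2 (-1.38, limma adjusted p = 0.946), Sh2d2a (-1.29, limma adjusted p = 0.977) and Cd8b1 (-1.25, limma adjusted p = 0.981) had the same sign and did not pass. Grb2 read 1003, 1711 and 450.3 in alpha4-low expansions against 1978, 1336 and 781 in their partners, and 1969.7 in the alpha4-high expansion against 1043. Malt1 (1.05, limma adjusted p = 0.999) and Ptpn2 (0.89, limma adjusted p = 0.969) had the opposite sign, and Nfatc3 and Nfatc1 had differences of -0.97 and -0.85 (limma adjusted p = 0.9997 for both).

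Several members have more than 1 probe set, and none of them passed either. Of 106 probe sets of the 43 genes, 90 were tested, and 0 had an adjusted p under 0.05 in any of the 3 comparisons in limma. At an unadjusted p under 0.05 there were 3 of the 90 over all pairs (3.33%, beside 3.25% of all probe sets), 1 in the alpha4-low pairs (1.11%, beside 5.11%) and 9 for the difference between subclasses (10.0%, beside 6.57%). Yes1 accounts for 4 of the 9. Among 26 members with several tested probe sets, 14 had 1 sign in all of them for the difference between subclasses. The same share over all genes was not computed, so this count is a description only.

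Other genes of the pathway were read from a list of 69, of which 59 had a probe set and 58 were tested. None passed in limma in any comparison (0 of 58 each). At an unadjusted p under 0.05 there was 1 of 58 over all pairs, lower (1.72%, beside 3.25% of all probe sets). There were 4 in the alpha4-low pairs, all lower (6.90%, beside 5.11%), and 4 for the difference between subclasses, 2 in each direction (6.90%, beside 6.57%). Tec, a kinase of the family that activates phospholipase C gamma, read 1217, 1118, 505 and 407 in expansions and 1429.7, 1406, 1238 and 1346 in polyclonal samples. Every expansion was below every polyclonal sample. Tec was the only 1 of the 58 whose groups did not overlap (1.72%). Of all probe sets, 0.635% had every expansion below and 0.711% every expansion above. The mean difference of Tec was -0.89 (95% interval -1.69 to -0.09, not adjusted for the number of genes; limma adjusted p = 0.9998). Map4k1, a kinase that dampens receptor signals, and Trat1, an adaptor of the receptor complex, did not pass over all pairs (limma adjusted p = 0.9998 for both), and their differences have no exact size. For Map4k1 expansion 1 was below background. For Trat1 a single pair carries the difference, with expansion 3 at 4.65, below background, against 1020.4 in its partner, beside differences of 0.25, -0.81 and -0.02 in pairs 1, 2 and 4. In the alpha4-low pairs the smallest p belonged to Tbc1d10c, an inhibitor of calcineurin (-1.28, limma adjusted p = 0.908), Trat1 (limma adjusted p = 0.923) and Tec (-1.11, limma adjusted p = 0.939).

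For the difference between subclasses, the smallest p among these other pathway genes was that of Vav3, a relative of Vav1. It read 1397, 449 and 493 in alpha4-low expansions against 660.2, 453 and 1128 in their partners. In pair 1 it read 12.8 in the expansion, under background, against 609 in the partner, at least 11.9-fold lower. The difference was 5.07 (95% interval 3.00 to 7.14; limma adjusted p = 0.0839), again with no exact size. Vav1, the family member on the main list, read 252, 589.8 and 305 in alpha4-low expansions against 554, 394 and 272 in their partners, and 165 in the alpha4-high expansion against 233 (0.36, 95% interval -1.58 to 2.31). Ptpn12, a phosphatase gene, read 4638 in the alpha4-high expansion against 15774 in its partner, with a difference between subclasses of 2.11 (limma adjusted p = 0.510). Map2k2, the gene of a MAP kinase kinase, had a difference of -2.38 (limma adjusted p = 0.606), with expansion 4 below background.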

How the data were processed

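RNA of sorted CD8 T cells was amplified in a double round, biotin-labelled and hybridised to Affymetrix mouse arrays, per the labels' protocols. Values for 45101 probe sets are intensities on a linear scale, deposited by the authors. The submitters' processing notes name MAS5 (version not given in the sources used here). The 2% trimmed mean was recorded as a single value of 500 and was not checked array by array. No further scaling was added to the deposited scaling. That scaling hides changes in total RNA per cell.

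Signals were taken as log2(value + 5), so fold changes of dim probe sets are understated. After removal of 64 control probe sets and of those not above the median of the mean log2 value, 22518 went into a linear model (limma 3.58.1, R 4.3.3, intensity trend) with mouse as a block, Benjamini-Hochberg adjustment over all 22518 and a threshold of 0.05, two-sided. Subclasses had their own coefficients in a further model. Residual degrees of freedom were 3 and 2. Samples of the same mouse are paired by design, and their deviations from the group means correlated at 0.374, 0.0771, 0.214 and 0.338. Expansion 2 correlated higher with polyclonal sample 4 (0.131), and expansion 3 with polyclonal sample 2 (0.301), than with their own partners. Background was the 95th percentile of 27 unspiked bacterial control probe sets on each array. Gene names came from the platform annotation, in which 34958 probe sets list 1 gene, 932 several and 9160 none; genes were named only from the first kind. The members, the lists of other pathway genes and cell type markers, and the motifs were chosen with earlier results of these data known. Every member was described, with values on every array at least for the 3 with the smallest p in each role and comparison and the 2 brightest of each role. From the other pathway genes, the 3 with the smallest p in each comparison were named. The models were tested on simulated data with known differences, under 2 noise models. Estimates and intervals met limits on bias, interval coverage and false calls. These limits replaced a first requirement on the share of large differences called, which was not met under 1 noise model. Each probe set was simulated with the same spread on every array. The simulation therefore cannot check the assumption that the single alpha4-high pair varies like the others. Few differences of 1 log2 unit were called under either noise model, and the number called depended on the noise model. A gene that does not pass is therefore not shown to be equal. Figures were drawn with matplotlib 3.10.9.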

Additional observations from a re-analysis of the deposited data

Results flagged for a closer look

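Each group of 4 arrays was searched for a sample far from the others, over the 43 genes and both groups. The gap of the extreme sample to its nearest neighbour, as a share of the whole range, exceeded the 95% critical value of Dixon's test in 1 of 86 checks, where chance gives about 1 in 20. The sample was expansion 1 for Ptpn2, at 23874 against 34572, 35365 and 33427 in expansions 2 to 4, with 28704 in its own partner. The low values of expansion 1 for Yes1 and Pag1 did not exceed that limit.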

How the results depend on the processing

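Over all pairs and in the alpha4-low pairs, 0 members passed under each of the 16 and 15 alternatives run, with smallest adjusted p of 0.875 and 0.102. For the difference between subclasses 1 member passed (Yes1) with no filter, with the stricter filter, with median centring, with sort purity as a covariate and without pair 2 or pair 4, and 2 passed (Yes1 and Pag1) without the replicate block and without pair 3. Leaving out 1 pair thus gave 1 to 2 calls, and the limma adjusted p of Yes1 was between 2.7e-08 and 0.246 over 14 alternatives; the smallest came without pair 3, where 1 residual degree of freedom remained. The cause was not tested. The median difference between subclasses over members, 0.08 as reported, was 0.36 with median centring, -0.42 with sort purity, -0.38 with the mean of each gene's probe sets, and -0.24 to -0.089 with 1 pair left out, and 0.14 without the replicate block. Median centring shifted the median of all probe sets by 0.16 in the alpha4-low pairs and by 0.28 for the difference between subclasses, and quantile normalization by 0.07 and 0.14. Of the role medians, that of receptor and coreceptor genes ran from -0.52 to 0.11 over all pairs and from -0.74 to 0.10 in the alpha4-low pairs with 1 pair left out. Members named by p kept their sign in every alternative run. With pairs 2 and 3 left out, chosen after seeing the data, 0 members passed over all pairs. The number of arrays, and for Yes1, Map4k1, Trat1, Vav3 and Map2k2 signal under background, limit the precision.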
